A study of Mus musculus with 3 samples.

Results

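The simple epithelial keratins Krt7, Krt8, Krt18 and Krt19 were followed through single cells of the mouse blastocyst. The 4 genes were chosen by name, as 4 of the 23154 gene rows of each count table and 4 of its 52 keratin rows. All 4 had counts in all 3 libraries. The cells came from embryos of the Klf2-H2B-mCherry reporter line, which were taken at embryonic day 2.5, kept in static and in shaking culture and picked apart at embryonic day 3.5, and the study concerns fluid flow and cell fate. The 3 libraries, called replicates 1 to 3, form 1 group of 96 barcodes each, and the labels do not say which cell was kept in which culture, so no contrast of culture was made. Cells came from mCherry-positive embryos, and the sources used here do not give the number of embryos behind a library. Nothing in the labels ties the libraries to separate litters, so p-values speak for the spread among the 3 libraries, which may be technical.

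A barcode with a count in at least 2000 genes was used as a cell, which gave 83, 64 and 78 cells, or 225 of 288 barcodes. Cells were sorted by clustering on marker genes that include no keratin, into 62 trophectoderm-like (TE-like) cells, 75 inner-cell-mass-like (ICM-like) cells, 65 cells of a cluster led by Lrp2 and 23 of a cluster led by Ssc4d. The last 2 carry no cell type name, because they did not meet the marker rule. Their mean scores for TE, for ICM with epiblast and for primitive endoderm markers all lay below those of the other cells. The log2 differences were -0.33, -0.83 and -0.46 in the Lrp2-led cluster. In the Ssc4d-led cluster they were -1.17, -0.61 and -0.24. Median counts per cell were 588066 in TE-like cells, 382190 in ICM-like cells and 139168 in the Lrp2-led cluster. Of the Ssc4d-led cells, 18 came from replicate 1. Summed TE markers lay at 1541 to 4326 CPM (counts per 1000000) in TE-like cells and at 306 to 365 CPM in ICM-like cells. Among the fixed TE markers Lcp1 had no count in any cell, and among the epiblast markers Sox2 had none. Hand1, a TE marker, went the other way (mean 0.754 CPM in TE-like and 36.9 CPM in ICM-like cells). The TE markers Tfap2c, Eomes and Elf5 did not pass the edgeR test below. Summed ICM markers lay at 1292 to 3388 CPM in ICM-like and 624 to 2596 CPM in TE-like cells. Summed epiblast markers lay at 684 to 1118 and 424 to 743 CPM. Both sums were higher in ICM-like cells within each library, but their ranges overlapped. The 20 primitive endoderm markers summed to 872 to 3910 CPM in the TE-like class, against 642 to 1659 CPM in the ICM-like class. Of these, Lrp2 and Dab2 were higher in TE-like cells (Lrp2 242 to 1328 against 22.2 to 79.5 CPM), while the other 18 summed to 295 to 398 CPM there and 589 to 1478 CPM in ICM-like cells. Markers of cumulus, blood, oviduct and fibroblast cells each summed to under 20 CPM in every library of TE-like cells, with Foxl2, Inha, Ptx3, Hbb-bs, Hba-a1, Tyrobp, Col1a2, Col3a1 and Lum at 0 counts in all kept cells. The 8 oocyte markers, with H1foo at 0, summed to at most 21.9 CPM in the TE-like class and 52.4 CPM in the ICM-like class, but to 466 CPM in the Ssc4d-led cells of replicate 1. The part of these markers in the keratin results was not tested.

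Keratins build the intermediate filaments of epithelial cells. A filament needs a type I keratin, here Krt18 or Krt19, paired with a type II keratin, here Krt7 or Krt8, and an unpaired chain is degraded. Krt8 and Krt18 form the first keratin filaments of the mouse embryo, and both proteins are used as markers of the trophectoderm, the outer epithelium of the blastocyst that makes the placenta. Krt7 and Krt19 are partners in many simple epithelia and are strong in later trophoblast.

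The genes of the first pair are neighbours. In the GENCODE M21 annotation of GRCm38, Krt8 lies at chr15:101996698-102004482 on the minus strand and Krt18 at chr15:102028180-102032027 on the plus strand, so that they are read away from each other with 23698 bases between their starts. The type II gene Krt7 lies on the same chromosome at chr15:101411043-101430313 on the plus strand, and the type I gene Krt19 at chr11:100140810-100148665 on the minus strand. An exon of Gm671 overlaps Krt7 and an exon of Gm36026 overlaps Krt8, each on the opposite strand, and the sources used here do not give the strand setting of the counting. The following stretches from the RefSeq promoter table (GRCm38.p6) are shown because the first 3 genes were high in the same cells. Each runs 5′ to 3′ on the gene's strand within the 250 bases before the RefSeq start and stops where a GENCODE exon begins. Capitals mark matches to any of 7 short motifs searched on both strands: a core promoter box written TATAAA, the motif of GATA factors written AGATAA, that of TEAD written GGAATG, of AP-1 written TGANTCA, of AP-2 written GCCNNNGGC, of SP factors written GGGCGG and of ETS factors written CAGGAAG.
Krt8, chr15:102004483-102004592, minus strand: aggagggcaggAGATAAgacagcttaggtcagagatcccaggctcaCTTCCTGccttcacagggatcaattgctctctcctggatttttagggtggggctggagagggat
Krt18, chr15:102027966-102028179, plus strand: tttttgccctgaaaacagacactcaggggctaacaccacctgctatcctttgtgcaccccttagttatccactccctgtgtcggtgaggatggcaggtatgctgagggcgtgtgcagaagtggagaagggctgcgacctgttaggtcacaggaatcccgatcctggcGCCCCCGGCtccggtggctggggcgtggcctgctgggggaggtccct
Krt7, chr15:101412153-101412402, plus strand: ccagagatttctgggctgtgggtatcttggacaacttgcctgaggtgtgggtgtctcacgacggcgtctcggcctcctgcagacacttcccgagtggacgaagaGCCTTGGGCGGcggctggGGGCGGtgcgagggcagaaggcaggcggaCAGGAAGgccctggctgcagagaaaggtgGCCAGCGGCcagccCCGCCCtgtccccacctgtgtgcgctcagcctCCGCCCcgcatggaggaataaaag

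The Krt8 stretch held 1 GATA match 239 bases before the start and 1 ETS match on the other strand at 204 bases. The Krt18 stretch held 1 AP-2 match at 83 bases. Krt7 held 2 AP-2 matches at 146 and 70 bases, an ETS match at 99 bases and 4 SP matches at 141, 128, 56 and 24 bases, of which the first SP match overlaps the first AP-2 match. No motif was found in all 3 stretches. Those of Krt8 and Krt18 are cut to 110 and 214 bases, while the shares that follow are over 250 bases. Over the 32851 promoters of the table, 9.99% held the GATA motif in the same 250 bases, 13.7% AP-2, 10.8% ETS, 32.7% SP, 12.4% the core promoter box, 12.6% TEAD and 6.75% AP-1, so each of the matched motifs is found in many promoters. A match describes letters and shows no binding.

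Krt18, the type I chain of the first pair, stood at 2974, 2589 and 2915 CPM in the TE-like cells of replicates 1, 2 and 3, at 451, 826 and 1035 CPM in the Lrp2-led cluster and at 116, 68.0 and 162 CPM in ICM-like cells. The ranges of these 3 classes did not overlap. In TE-like cells Krt18 ranked 16th of 23154 genes by mean CPM, against 1889th in ICM-like cells. This made Krt18 26.9-fold higher in TE-like cells, a log2 fold change of 4.75 (SE 0.21, edgeR adjusted p = 7.79e-06), and the ratio was 25.6, 38.1 and 18.0 in the single libraries.

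Krt8, the type II chain, followed the same order. It stood at 1825, 2327 and 1364 CPM in TE-like cells, at 351, 1071 and 579 CPM in the Lrp2-led cluster and at 141, 193 and 159 CPM in ICM-like cells. Again the ranges of these 3 classes did not overlap. The Ssc4d-led cells, 18, 4 and 1 in replicates 1 to 3, had 40.6, 294 and 50.1 CPM of Krt8. Their Krt18 was 70.4, 171 and 10.0 CPM, so for both genes they lay on both sides of the ICM-like range. Krt8 was 11.4-fold higher in TE-like cells, a log2 fold change of 3.51 (SE 0.16, edgeR adjusted p = 9.51e-06), with ratios of 12.9, 12.0 and 8.60 in the single libraries.

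Krt7, the second type II chain, was far lower. Its TE-like level was 48.5, 35.6 and 49.2 CPM, against 14.7, 21.3 and 20.2 CPM in the Lrp2-led cluster and 11.2, 4.48 and 4.23 CPM in ICM-like cells. TE-like libraries lay above all others, and the TE-like over ICM-like difference passed the test at 7.63-fold (log2 fold change 2.93, SE 0.43, edgeR adjusted p = 0.00479). The ratio was 4.34, 7.93 and 11.6 in the single libraries.

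Krt19, the second type I chain, stayed near the limit of detection. TE-like cells had 1.12, 2.18 and 8.00 CPM of it, ICM-like cells 1.32, 2.45 and 2.81 CPM, and these ranges overlapped. The log2 fold change was 0.43 (SE 1.07, edgeR adjusted p = 0.887), with a 95% interval of -1.97 to 2.84 that does not fix the direction.

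Thus 3 of the 4 keratins were higher in TE-like cells, against 3.59% of the 12873 genes tested outside the clustering markers (1.82% were lower, 5.41% either). By p-value Krt18 stood 3rd and Krt8 5th of 12919 genes. The classes were drawn from the same cells, so these p-values do not count the drawing of the classes. Without the library as a block, edgeR adjusted p was 0.0895 for Krt8, 0.0717 for Krt18 and 0.231 for Krt7, so none of the 3 then passed, with 4 genes called in all. With classes set by the sign of a marker score in place of clusters, the log2 fold changes were 2.77 for Krt8, 3.37 for Krt18 and 2.53 for Krt7, and edgeR adjusted p for Krt7 was 0.0737. That setting covers a larger set of cells. It also sorted the Lrp2-led cells (37 as TE-like, 28 as ICM-like) and the Ssc4d-led cells (6 and 17) into the 2 classes. The plot of single-cell levels shows both the step between classes and the spread within them.

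**Figure D1:**
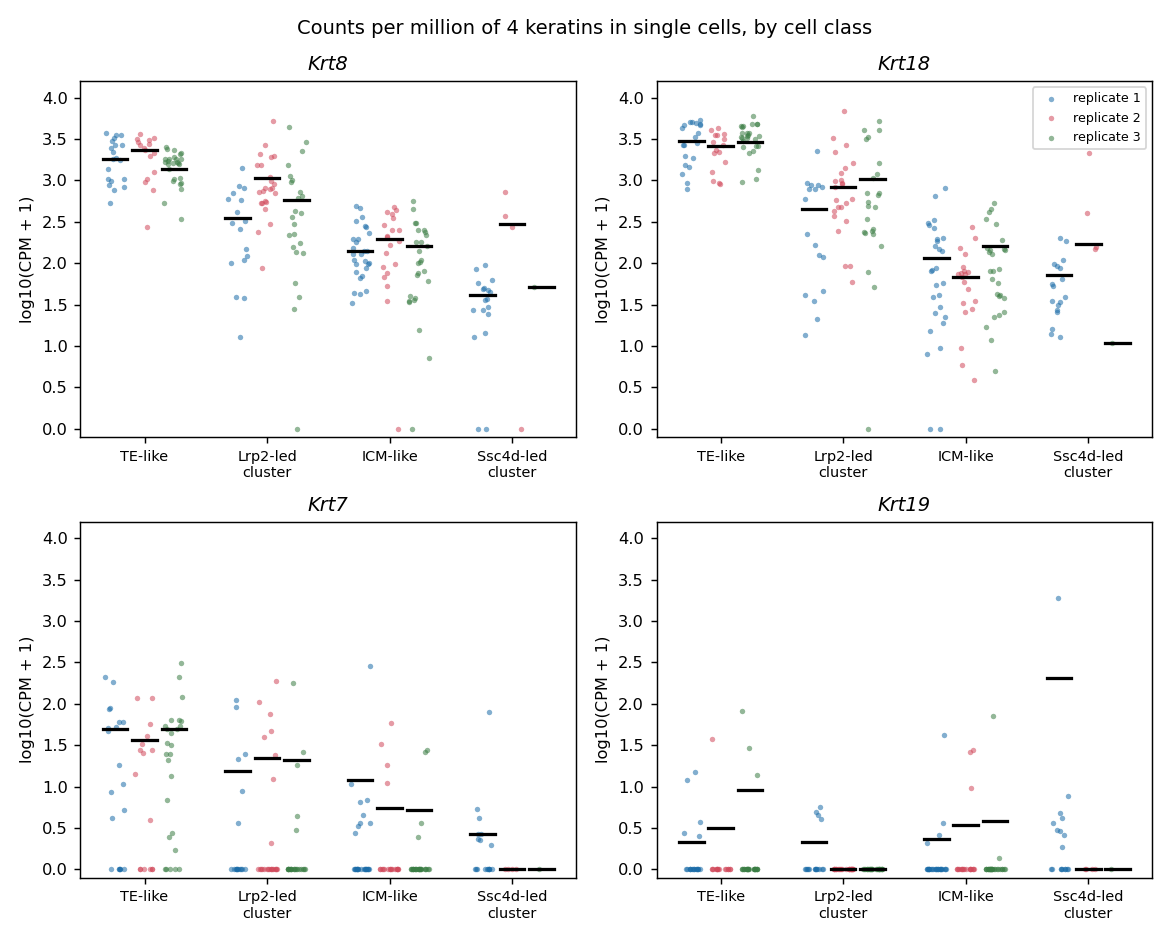
Each point is 1 cell, in log10 of CPM plus 1, by cell class (x axis) and replicate (colour), with 1 panel per keratin; the black bar is the level of all cells of that class and library summed. Krt8 and Krt18 step down from TE-like (1364 to 2974 CPM) to ICM-like cells (68.0 to 193 CPM), Krt7 is at 0 in many cells of every class, and 1 Ssc4d-led cell holds most of Krt19.

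The Lrp2-led cluster took an intermediate place for the Krt8 and Krt18 pair. Against ICM-like cells, Krt18 was 7.05-fold higher (log2 fold change 2.82, SE 0.26, edgeR adjusted p = 0.00108) and Krt8 3.89-fold higher (log2 1.96, SE 0.20, edgeR adjusted p = 0.00132), where 0.455% of 12537 genes were called higher. Against TE-like cells it was lower: TE-like cells had 3.72 times its Krt18 (edgeR adjusted p = 0.00233) and 2.86 times its Krt8 (edgeR adjusted p = 0.0104), where 0.682% of 12325 genes were called higher in TE-like cells. Krt7 passed neither of these tests, with log2 fold changes of 1.73 (SE 0.72, edgeR adjusted p = 0.44) and 1.19 (SE 0.41, edgeR adjusted p = 0.227). For Krt19 the Lrp2-led cells of replicates 2 and 3 had 0 counts. Without replicate 3 the first comparison lost both calls (edgeR adjusted p 0.0903 for Krt8 and 0.0719 for Krt18), while the second kept both without any 1 library. Within single cells of this cluster Krt8 ran from 0 to 5200 CPM, past the highest TE-like cell (3688 CPM), so the intermediate level is that of a sum and not of each cell.

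The 4 keratins together took 0.471% ± 0.033 of all counts in TE-like cells (SD, n = 3 libraries), 0.146% ± 0.057 in the Lrp2-led cluster and 0.0289% ± 0.0034 in ICM-like cells. The pair did not rise in proportion. Krt18 counts per Krt8 count were 1.63, 1.11 and 2.14 in TE-like cells, 1.28, 0.771 and 1.79 in the Lrp2-led cluster and 0.822, 0.351 and 1.02 in ICM-like cells. In each library the ratio fell from TE-like through Lrp2-led to ICM-like cells, and its log2 difference between TE-like and ICM-like cells was 1.24 ± 0.37 (SD, n = 3). The exact two-sided sign-flip permutation test gave p = 0.25, which is the smallest value that 3 libraries allow. Fragments were taken from the 3′ end and the levels are not scaled by transcript length, so the ratio compares classes and does not say which chain is more abundant.

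The pair was found in nearly every cell. Krt8 had a count in 219 of 225 cells and Krt18 in 222 of 225, and all 62 TE-like cells had both. Of the others, 6 cells had Krt18 without Krt8 and 3 had Krt8 without Krt18. Those 9 cells were shallow, with 9984 to 93954 counts (median 37558, against 366333 over all cells) and at most 30 keratin counts. Free RNA was not measured separately, and since ICM-like cells also had Krt8 in 73 of 75 and Krt18 in 73 of 75 cells, a count alone does not separate the classes. After thinning each cell to 50000 counts, ICM-like cells still had Krt8 in 64 of 69 and Krt18 in 64 of 69, against 61 of 61 TE-like cells for each. The class shows instead in the amount: the lowest TE-like cell had 273 CPM of Krt8, and the ICM-like medians were 129, 196 and 103 CPM, although the highest ICM-like cell reached 561 CPM.

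Krt7 was found in a larger share of TE-like cells than of the other classes, although its presence did not separate them. It had a count in 14 of 20, 10 of 16 and 21 of 26 TE-like cells (71.1% ± 9.18, SD, n = 3 libraries), with exact 95% Clopper-Pearson intervals of 45.7% to 88.1%, 35.4% to 84.8% and 60.6% to 93.4%. In ICM-like cells the numbers were 9 of 28, 4 of 20 and 4 of 27 (22.3% ± 8.89) and in the Lrp2-led cluster 6 of 17, 8 of 24 and 5 of 24 (29.8% ± 7.84). The Krt7 level moved with depth over cells of all classes. Its CPM had a Spearman correlation to the total count of 0.34 (mean of 3 libraries over cells, against 0.09 for Krt8 and 0.08 for Krt18). Within classes this mean was 0.23 in TE-like, 0.36 in Lrp2-led and 0.13 in ICM-like cells. At an equal 50000 counts the shares were 58.1% ± 6.57 in TE-like, 25.7% ± 8.10 in Lrp2-led and 10.3% ± 2.63 in ICM-like cells, from 61, 53 and 69 cells after 1, 12 and 6 shallower cells were left out. The order TE-like above ICM-like thus held at equal depth in each library (52.6, 56.3 and 65.4% against 12.5, 11.1 and 7.41%).

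Within a cell, Krt7 and Krt19 were counted together with the pair. Over all cells 116 had Krt8 and Krt18 alone, 69 had these with Krt7, 11 with Krt19 and 20 had all 4. No cell had Krt7 or Krt19 without a count of Krt8 and Krt18, while after thinning 3 cells had Krt7 with only 1 of the pair and 1 cell had Krt19 alone. Only 9 of 225 cells lacked 1 of the pair, and these were shallow (median 37558 counts). Few exceptions could therefore be seen, and the overlap does not show joint use. Among TE-like cells 38 of 62 had Krt8, Krt18 and Krt7, 15 had the pair alone and 7 had all 4. In ICM-like cells 50 of 75 had the pair alone.

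Over cells, Krt8 and Krt18 rose and fell together. Their Spearman correlation was 0.80, 0.90 and 0.88 in replicates 1 to 3 (mean 0.86, and 0.87 at equal depth), over 83, 64 and 78 cells that share a library. Within classes it was lower: in TE-like cells the mean was 0.74, in the Lrp2-led cluster 0.79 and in ICM-like cells 0.47, with 0.19, 0.65 and 0.57 in the 3 libraries of the last. Krt7 followed the pair less closely, at 0.40 with Krt8 and 0.45 with Krt18, and Krt19 was near 0 with both (-0.03 and 0.01). The difference between these correlations was not tested.

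**Figure D2:**
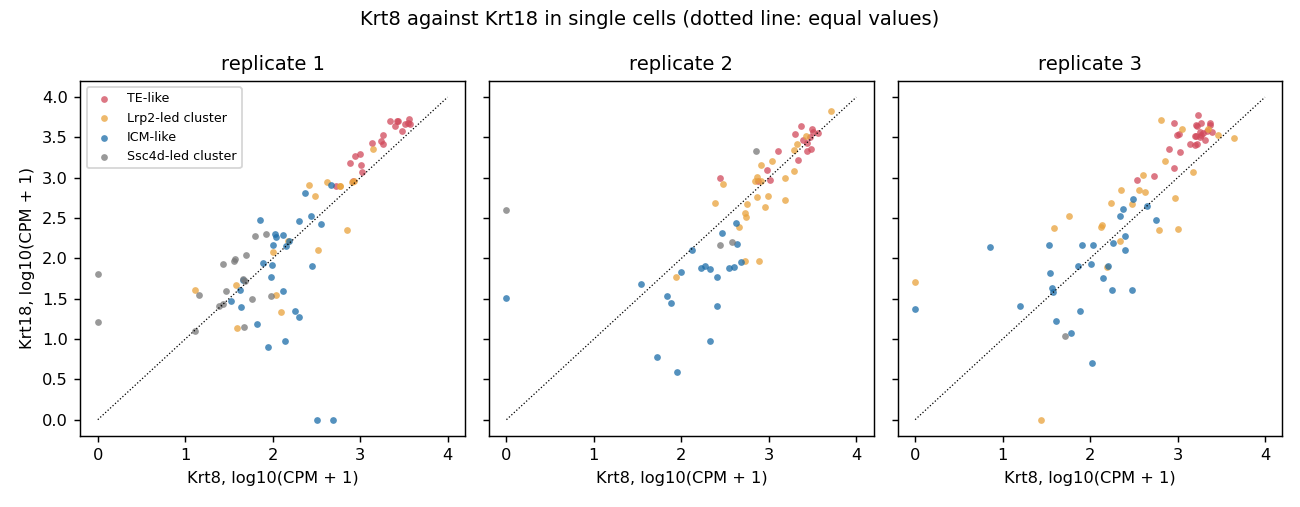
Each point is 1 cell, with Krt8 on the x axis and Krt18 on the y axis, both as log10 of CPM plus 1, coloured by class, with 1 panel per replicate. TE-like cells gather at the top right and mostly above the dotted line of equal values in replicates 1 and 3, while ICM-like cells lie lower and spread to both sides (Spearman 0.80, 0.90 and 0.88).

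Among TE-like cells, those with a Krt7 count differed in the first pair in 2 of 3 libraries. Median Krt8 was 2347 CPM with Krt7 and 1039 CPM without in replicate 1, 2830 and 1159 CPM in replicate 2, and 1630 and 1832 CPM in replicate 3. Median Krt18 was 4495 and 1657, 3058 and 1452, and 3438 and 3365 CPM. So replicate 3 did not share the direction for Krt8. Cells with Krt7 had the higher median total in all 3 libraries, and the part of depth was not tested. These totals were 365420 and 183894 counts in replicate 1, 588066 and 578958 in replicate 2, and 1005340 and 545835 in replicate 3. The barcode number also moved with keratin levels. The summed Krt8 level in TE-like cells was 1910 CPM for barcodes 1 to 32 and 1380 CPM for barcodes 65 to 96 in replicate 1. It was 2660, 1838 and 761 CPM for barcodes 1 to 32, 33 to 64 and 65 to 96 in replicate 2, and 1779, 1092 and 534 CPM in replicate 3, where the last range holds 1 TE-like cell in each of these 2 libraries. Krt8 was thus lower at higher barcode numbers in every library. Krt18 was at 3144 and 2092 CPM in replicate 1, 2566, 2815 and 900 CPM in replicate 2, and 3581, 2609 and 1037 CPM in replicate 3. Of TE-like cells, 34 of 39 with barcodes 1 to 32 had a Krt7 count, 8 of 16 with barcodes 33 to 64 and 3 of 7 with barcodes 65 to 96, sets that were drawn after the data had been seen. The summed Krt7 level in TE-like cells was 57.0, 51.7 and 76.6 CPM for barcodes 1 to 32 in replicates 1 to 3, while replicates 2 and 3 had 7.03 and 22.9 CPM for barcodes 33 to 64. What a barcode range stands for is not given in the labels. With barcodes 1 to 32 alone, Krt7 had a log2 fold change of 4.53 of TE-like over ICM-like cells and edgeR adjusted p = 0.116, while Krt8 and Krt18 remained called. In the 8 sets of 1 library and 1 barcode range that held both classes, Krt8 was higher in TE-like cells in 8 (log2 ratio 1.50 to 3.77, median 3.23) and Krt18 in 8 (2.18 to 6.25, median 4.46).

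**Figure D3:**
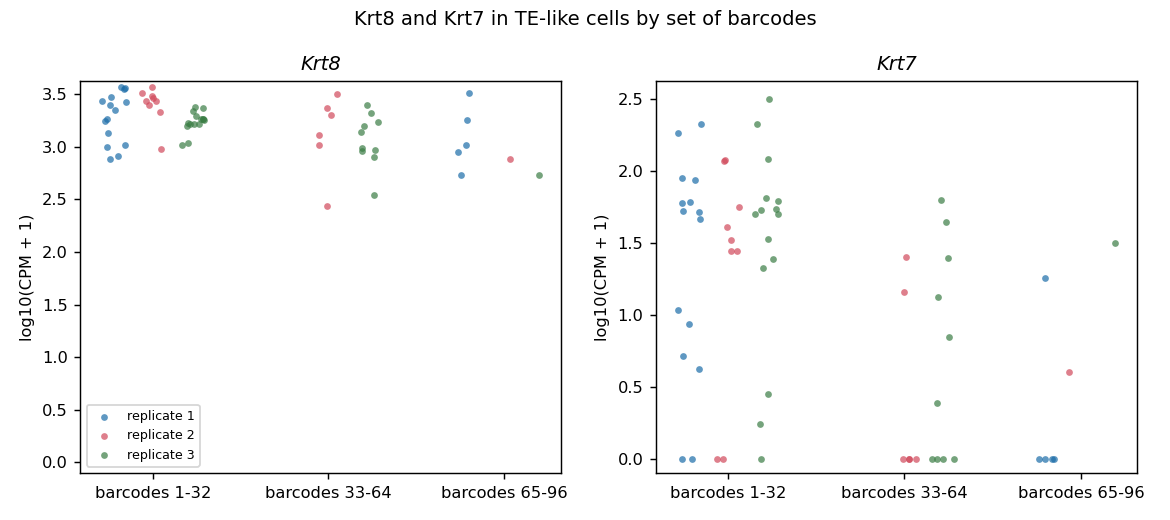
Krt8 (left) and Krt7 (right) in single TE-like cells as log10 of CPM plus 1 (y axis), by range of barcode numbers (x axis) and replicate (colour). Most cells of barcodes 1 to 32 have a Krt7 count (34 of 39), fewer do in the other ranges (8 of 16 and 3 of 7), and Krt8 is present in all cells but lower at higher barcode numbers (summed level 1779, 1092 and 534 CPM in replicate 3).

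Krt19 was found in 31 of 225 cells, as 9 of 62 TE-like, 4 of 65 Lrp2-led, 9 of 75 ICM-like and 9 of 23 Ssc4d-led cells. By library it was in 22 of 83, 4 of 64 and 5 of 78 cells, so replicate 1 held most of them. In 14 of the 31 cells it had a single count, and the median was 2. One Ssc4d-led cell of replicate 1 held 2187 of the 2541 Krt19 counts (86.1%), at 1877 CPM, with 23.2 CPM of Krt8 and 24.9 CPM of Krt18. That cell was thus low in the pair of keratins that mark TE-like cells. Without it, the Ssc4d-led cells of replicate 1 had 1.79 CPM of Krt19 in place of 207 CPM. All 18 of these cells had barcodes 33 to 64, a range in which replicate 1 had no TE-like cell. They also held 466 CPM of the oocyte markers, of which 448 CPM were Zp3, a gene of the egg coat, against 88.4 CPM of these markers in the cell highest in Krt19. The part of the barcode range and of these markers in the Krt19 counts was not tested. The next highest Krt19 cells were TE-like (81.3 CPM) and ICM-like (70.0 CPM), both of replicate 3.

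The gene whose counts were most like those of Krt8 was Nlrp4e, a member of the NLR family known from oocytes and early embryos. Likeness was the mean over libraries of the Spearman correlation over cells, among genes with a count in at least 25% of the cells of each library (8522 for Krt8 and 8520 for the mean of the 4 keratins over all cells, and 9096 within TE-like cells). Nlrp4e reached 0.90 with Krt8 (0.88, 0.89 and 0.93 in replicates 1 to 3, and 0.88 at equal depth), above Krt18 with Krt8 (0.86) and far above the median gene (0.06). It was also first for the mean of the 4 keratins (0.82) and within TE-like cells for Krt8 (0.79). TE-like cells had 374 ± 201 CPM of it, ICM-like cells 32.1 ± 17.4 CPM (SD, n = 3), a log2 fold change of 3.59 (SE 0.21, edgeR adjusted p = 2.75e-05) beside 3.51 for Krt8.

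A copy of Krt8 lies inside Nlrp4e. GENCODE M21 places Nlrp4e at chr7:23301192-23362277 on the plus strand and the processed pseudogene Krt8-ps at chr7:23357125-23358069 on the same strand, in the intron between the exons that end at 23355277 and begin at 23361841. RefSeq gives Krt8-ps 1686 bases, at chr7:23357094-23358779. The Krt8-ps transcript of GENCODE matched the Krt8 transcript at 98.6% of 941 aligned bases, and Krt8-ps has no row of its own in the count tables. The gene models used for counting were not given. In the summed cells of each class, Nlrp4e counts per Krt8 count were 0.150 in TE-like, 0.135 in Lrp2-led and 0.135 in ICM-like cells of replicate 1. They were 0.260, 0.240 and 0.268 in replicate 2, and 0.177, 0.159 and 0.159 in replicate 3. In the Ssc4d-led cells it was 0.0856 in replicate 1 (37 Nlrp4e and 432 Krt8 counts), 0.257 in replicate 2 and 0 of 5 Krt8 counts in replicate 3. Within each library the ratio was thus nearly level across the TE-like, Lrp2-led and ICM-like classes, whose Krt8 differed by 8.60-fold to 12.9-fold between TE-like and ICM-like cells, whereas it differed between libraries and was lower in the Ssc4d-led cells of replicate 1. Krt18 per Krt8, in the same sums, changed by about 1 log2 unit or more (0.99, 1.66 and 1.06). Of 204 cells with an Nlrp4e count, 4 had no Krt8 count. Since 219 of all 225 cells had a Krt8 count, this overlap was nearly set in advance. The split of reads between Krt8 and its copy was not tested, so the levels of both rows are uncertain to that extent. Krt18 has 2 annotated copies of at least 500 aligned bases, Gm5200 (90.5% identical) and Gm17847 (86.5%), neither of them with a row in the tables or inside another gene, and Krt7 and Krt19 have none by the same rule (at least 85% identity).

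**Figure D4:**
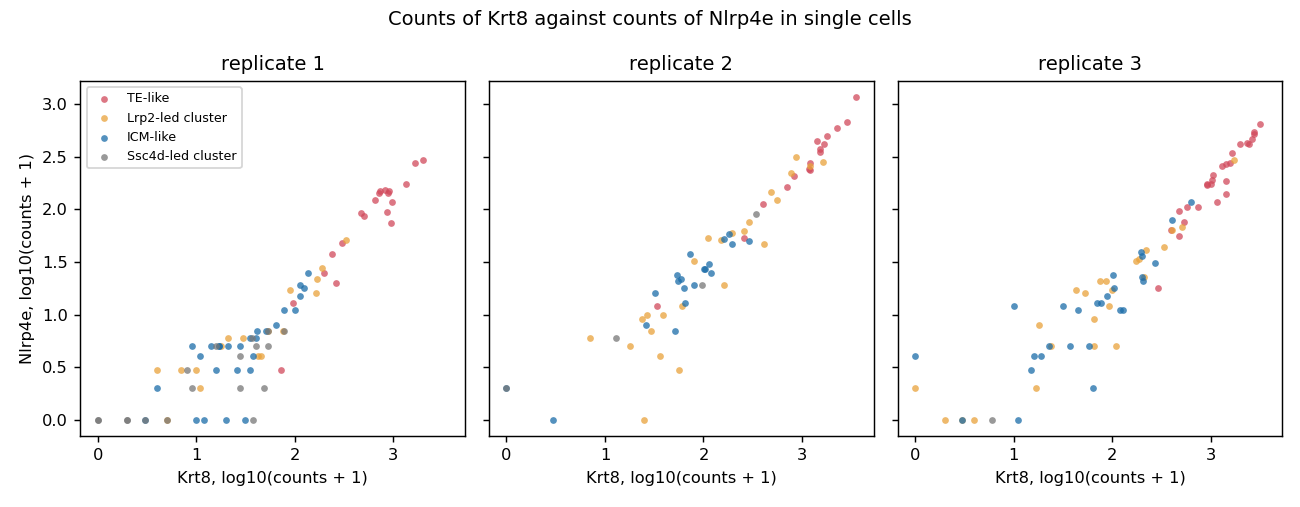
Each point is 1 cell, with counts of Krt8 on the x axis and of Nlrp4e on the y axis, both as log10 of counts plus 1, coloured by class, with 1 panel per replicate. TE-like, Lrp2-led and ICM-like cells fall along 1 band in each replicate (Spearman on CPM 0.88, 0.89 and 0.93), with ICM-like cells continuing it at lower counts.

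After Nlrp4e, the genes most like the mean of the 4 keratins were Fabp3, a fatty acid binding protein (0.72), the TE markers Id2 (0.72) and Gata3 (0.71), which took part in the clustering, the aldo-keto reductase Akr1b8 (0.69), the prostaglandin E synthase Ptges (0.68), the myosin light chain Myl12b (0.66), the sodium pump regulator Fxyd6 (0.66), the annexin Anxa2 (0.65) and the small heat shock protein Cryab (0.65). The median gene had 0.08. All 10 were higher in TE-like cells, with log2 fold changes from 1.79 for Myl12b to 5.97 for Cryab (SE 0.66, edgeR adjusted p = 0.00106). This direction was largely set by the choice, since the genes were picked over the same cells for likeness to keratins high in TE-like cells. The 5 least alike were Fbxl20 (-0.50), Spic (-0.44), the polyamine enzyme Sat1 (-0.42), Nrg2 (-0.41) and the Nodal co-receptor Tdgf1 (-0.40), of which Spic and Tdgf1 were used in clustering. For Krt7 alone the leading genes were Fxyd6 (0.55), the glycolytic enzyme Pgk1 (0.53), the claudin Cldn6 (0.52), Cryab (0.50) and the calpain Capn2 (0.50). For Krt19 the counts were too sparse to read such a ranking.

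Within TE-like cells, Krt8 was most like Nlrp4e (0.79), Krt18 (0.74), the chloride channel protein Clic4 (0.63) and the actin regulators Arpc5 (0.60) and Actn4 (0.60). Among the genes most like Krt18 were Krt8 (0.74) and the cytoskeletal genes Actb (0.66) and Tpm3 (0.59). Krt7 was most like the sorting nexin Snx1 (0.62), Capn2 (0.61), the respiratory chain subunits Cox5b (0.61) and Cox5a (0.58) and Cryab (0.59), and least like the gap junction gene Gja1 (-0.56). These ranks rest on 20, 16 and 26 cells and carry no test.

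The proteins that keratin filaments attach to were examined as lists. Of 13 tested genes of desmosomes and plakin linkers, which tie filaments to the cell border, 4 rose in TE-like cells and none fell, where 3.59% of all genes tested were called higher and 1.82% lower, with a median log2 fold change of 1.26 against -0.02 for all genes tested. Periplakin (Ppl) rose by 3.64 on the log2 scale (SE 0.81, edgeR adjusted p = 0.0338) from 2.02 ± 2.70 to 18.0 ± 13.5 CPM. Plectin (Plec) rose by 1.97 (edgeR adjusted p = 0.00485) from 21.3 ± 7.84 to 78.4 ± 15.8 CPM. Desmoplakin (Dsp) rose by 1.75 (edgeR adjusted p = 0.00821), from 13.9, 29.3 and 17.5 CPM in the ICM-like class to 41.7, 107 and 55.1 CPM. Perp, which was named after its value was seen, rose by 1.26. The desmosomal cadherins did not pass, with Dsc2 at 3.33 (SE 0.86, edgeR adjusted p = 0.0573) and Dsg2 at 1.63 (SE 0.58, edgeR adjusted p = 0.159).

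Of 20 tested apical and junctional epithelial genes 10 rose and none fell (median 1.17, with 3.59% of all genes called higher). The largest changes were in the scaffold Slc9a3r1 (3.40, SE 0.30, edgeR adjusted p = 0.00032), the actin linker moesin, Msn (3.01, SE 0.21, edgeR adjusted p = 7.99e-05), and the claudin Cldn4 (2.75, SE 0.18, edgeR adjusted p = 5.39e-05). Of 22 tested genes that bind, modify or degrade keratins none rose, 1 fell and 21 did not pass (median -0.23), a share near that of all genes (1.82% called lower). The 14-3-3 genes of this list, whose proteins bind phosphorylated Krt18, had log2 fold changes of -0.48 for Ywhag to 0.41 for Ywhah and passed no test. Of 11 other intermediate filament genes none passed, where 5.41% of all genes tested were called in either direction. Their median was -1.03, but it includes genes near the floor. Examples are Des (0.886 CPM in TE-like and 2.10 CPM in ICM-like cells) and Synm (0.0374 and 2.57 CPM). The lamins Lmna, Lmnb1 and Lmnb2 were at 0.52, -0.68 and -0.22. Vimentin (Vim), the filament of mesenchymal cells, had at most 3.24 CPM in any library of either class, and the lamin Lmna went from 190 ± 42.2 CPM (ICM-like) to 287 ± 137 CPM (TE-like) without passing (edgeR adjusted p = 0.258).

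Of 16 transcription factors of trophectoderm and epithelia, 8 rose and 2 fell, but 8 of the 16 served as clustering markers. Of the other 8, 4 rose, 1 fell and 3 did not pass, where 3.59% of all genes rose and 1.82% fell. The 3 largest changes were in such markers: Hand1 at -5.76, Gata2 at 5.40 and Cdx2 at 5.18. Among those that did not serve, and which were named after their values were seen, Grhl1 rose by 3.05, Elf3 by 1.90 (SE 0.14, edgeR adjusted p = 8.05e-05), Tead4 by 1.13 and Klf5 by 1.04, while Wwtr1 fell by 0.93. Of 9 tested AP-1, ETS and SP factors, known regulators of Krt18, none passed (median 0.69), where 5.41% of all genes were called in either direction.

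Of the other 48 keratin rows, 20 had any count in the kept cells and 6 were found in at least 5% of the cells of a library. Krt10, a type I keratin of the epidermis, was found in 111 cells, at 9.37 ± 2.77 CPM (TE-like) and 9.52 ± 9.65 CPM (ICM-like; log2 fold change 0.62, SE 0.73, edgeR adjusted p = 0.731). Krt222, Krt25, Krt27, Krt28 and the hair keratin Krt85 were found in 10 to 17 cells each. The 6 other keratins tested were Krt10, Krt23, Krt25, Krt27, Krt28 and Krt85. Of these, Krt85 was called higher in TE-like cells (edgeR adjusted p = 0.0366), where 3.59% of all genes tested were called higher. Krt85 stood at 1.75, 8.50 and 4.67 CPM there, against 0 counts in ICM-like cells of replicates 1 and 2 and 0.051 CPM in replicate 3. Its fold change rests on that near-absence and is not given as a size.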

How the data were processed

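Single-cell RNA was measured in 3 libraries with an oligo(dT) primer that carries an 8 nt cell barcode and an 8 nt molecular identifier, with capture of 3′ ends, per the labels' protocols. The authors deposited whole-number counts per gene and barcode, not normalized. Per the submitters' processing notes, the tools were CASAVA 1.8, HISAT2 and HTSeq, on mm10. The sources used here do not state the gene models, the strand setting or how identifiers were used. It is therefore unknown if counts are molecules or reads, and intervals hold only the error of counting. Library totals were 30573711, 27610866 and 54444536 counts. All libraries use barcode numbers 1 to 96, and barcode sequences were not used here.

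The members and lists were chosen with earlier results of these data known. Cells of 2000 or more genes were clustered (scanpy 1.11.5, 10 principal components, 15 neighbours, Leiden resolution 0.5) on 52 markers without keratins. As cells were hand-picked, doublets were not called. Counts were summed per class and library and tested with edgeR 4.0.16 (quasi-likelihood, TMM, filterByExpr, Benjamini-Hochberg over all genes tested, threshold 0.05), with the library as a block, since both classes come out of the same libraries. Deviations of the classes correlated at 0.78, 0.78 and 0.66 within libraries 1, 2 and 3 and below 0 between them. Deviations over 3 libraries sum to 0, which by itself pushes the values between libraries below 0. Those values are therefore no separate check of the block. CPM is per 1000000 counts of the cells summed. On simulated counts of 12834 genes for the TE-like over ICM-like comparison, the test called 1, 10, 42 and 50 of 50 genes changed by 2, 4, 8 and 16-fold. The simulation gave all genes the same dispersion and no differences between libraries other than depth, so it does not measure power in these data. Some smaller changes were called in the data, such as Actb at a log2 fold change of 0.74 (edgeR adjusted p = 0.00592). Alternatives were DESeq2 1.42.0, other scaling, filters, depths and classes, and leaving out each library. Copies were sought with blastn 2.17.0 in GENCODE M21 transcripts.

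Genes were named by a written rule: the 4 keratins, keratins found in 5% of the cells of a library, the 10 genes most and 5 least like the keratins, the 5 most like each keratin, and the 3 called genes of largest change in each list. A few genes that this rule names are not reported here.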

Additional observations from a re-analysis of the deposited data

Results flagged for a closer look

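Keratin counts were also present in the 63 barcodes that were left out for having fewer than 2000 genes. In replicate 1, 13 such barcodes held 107 counts of the 4 keratins among 47251 counts, in replicate 2, 32 barcodes held 291 among 92365, and in replicate 3, 18 barcodes held 759 among 180100. That is 2265, 3151 and 4214 CPM for the 4 genes together. Of the 759 counts in replicate 3, 541 were Krt18 and 209 Krt8. A keratin count was found in 11 of 13, 26 of 32 and 16 of 18 of these barcodes. Whether they were cells, broken cells or free RNA was not tested.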

How the results depend on the processing

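Under 14 alternatives Krt8 stayed higher in TE-like than in ICM-like cells (log2 fold change 2.77 to 3.68), as did Krt18 (3.37 to 5.05) and Krt7 (2.43 to 4.53), and each lost its call without the replicate block, at 3.52, 4.64 and 2.78. Both classes come from each library, and the paired fit was the main one. Krt7 also lost it with classes by score (2.53) and with barcodes 1 to 32 alone (4.53). Krt19, never called, turned to -1.10 with classes by score, to -1.62 with barcodes 1 to 32 and ran from -0.17 to 0.79 when 1 library was left out, and it had too few counts to be tested in thinned cells. The number of genes called, 696, was 1685 with DESeq2, 4 without the block, 101 with classes by score, 297 with barcodes 1 to 32, and 410 to 672 when 1 library was left out, with the lowest without replicate 2. For the Lrp2-led cluster over ICM-like cells, leaving out 1 library gave 1.70 to 2.25 for Krt8, 2.42 to 3.22 for Krt18 and 7 to 231 genes (7 without replicate 3, 231 without replicate 2). For TE-like over Lrp2-led cells it gave 32 to 168 genes (32 without replicate 1, 70 without replicate 3), and Krt19 could not be fitted without replicate 2 or 3. Among cells of all classes, the mean share with Krt8 (97.3%) was 91.9% at 5 counts or more, 94.5% in thinned cells, 96.3% with cells of 1000 genes and 99.0% with cells of 4000. For Krt18 (98.8%) it was 87.7% and 96.7% under the first 2 of these. For Krt7 (39.1%) it was 25.5%, 29.0% and, with cells of 4000 genes, 44.9%, and for all 4 keratins (8.52%) 1.90% and 3.02%, with 5.55% without replicate 1. The share with Krt19 (13.1%) was 4.08% at 5 counts or more, 6.92% in thinned cells and 6.33% without replicate 1. The correlation of Krt8 with Krt18 (0.86) was 0.76 as Pearson's r on log2 values, 0.74 within TE-like and 0.47 within ICM-like cells. The cause of these moves was not tested. The alternatives with barcodes 1 to 32, with the Lrp2-led cluster joined to TE-like cells, without cells over 2.5 times the median total, and those of the Lrp2-led comparisons were chosen after seeing the data.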
